A study of Mus musculus with 3 samples.

Results

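The genes described here encode 3 galectins and a galectin-binding protein of the mouse: Lgals1 (galectin-1), Lgals3 (galectin-3), Lgals9 (galectin-9) and Lgals3bp (galectin-3 binding protein). They are 4 of the 31053 genes in the deposited matrix. They were selected on measured values of these data, because Lgals1 and Lgals3 rose with panobinostat, so the panobinostat contrast is given below as a description with no test. All 4 were detected, with 38054 UMIs (unique molecular identifiers, each standing for 1 captured RNA molecule) of Lgals1, 69939 of Lgals3, 13882 of Lgals9 and 5270 of Lgals3bp in the cells kept. All 4 passed the filter on low counts in every comparison below.

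Galectins are small lectins that bind beta-galactoside sugars on glycoproteins. They are made in the cytosol, leave the cell without a signal peptide, and crosslink glycoproteins at the surface of the same or a neighbouring cell. Galectin-1 is known for dampening T cell responses and for inducing tolerogenic dendritic cells. Galectin-3 is a chimera-type galectin that is abundant in macrophages and other myeloid cells, and galectin-9 is a tandem-repeat galectin that binds Tim-3 and is induced by interferon. Lgals3bp encodes a secreted, heavily glycosylated scavenger-receptor-domain protein that binds galectins and is also induced by interferon.

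The cells were spleen cells of C57BL/6 mice, either leukemia-bearing (AML in the hashtag names) or wild type (WT), given panobinostat, a histone deacetylase inhibitor (LBH in the hashtag names), or vehicle (D5W) for 2 days. Splenocytes went through a density gradient, a sort for cells without GFP and a magnetic negative selection for dendritic cells, and 6 hashtag-labelled samples were pooled and captured together with 10x 3' v3 chemistry. The hashtags name 2 leukemia samples with vehicle (leukemia vehicle 1 and 2), 2 with the drug (leukemia panobinostat 1 and 2), and 1 WT sample of each kind. Values listed per sample below are given with both leukemia vehicle samples first, then both leukemia panobinostat samples, then WT with vehicle and WT with panobinostat. The GFP gate takes out cells that carry GFP, the leukemia model and the age and sex of the animals are not given in the sources used here, and every WT group is 1 hashed sample. The labels do not say whether hashed samples are separate animals, so p-values measure the spread between these hashed samples, which may be technical.

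The 19159 cells kept held 165493309 gene UMIs, with a median of 6138 per cell and 1670 to 6547 cells per hashed sample. Leukemia vehicle 2 stood apart: its cells had the highest median depth (13047 UMIs), the lowest median count of their own hashtag (93), and 34.8% of them were erythroid-like against 0.50% to 12.4% in the other samples. Marker genes set 4 dendritic cell classes apart: 2729 plasmacytoid (pDC-like) cells, 3567 conventional type 1 (cDC1-like), 3571 conventional type 2 (cDC2-like) and 2482 mature DC-like cells. All 11 pDC markers were raised in the pDC-like cluster. WT panobinostat had only 37 pDC-like cells (1.12% of its cells, against 9.28% to 42.3% elsewhere). Further classes included erythroid-like, monocyte-like, B cell-like and red pulp macrophage-like cells, so the negative selection left cells other than dendritic cells in the pool. Another 4078 cells stayed unnamed and entered no class comparison. The members took no part in clustering.

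In GRCm38 (GENCODE vM21), Lgals1 lies on chromosome 15 from 78926725 to 78930465 on the plus strand and Lgals3 on chromosome 14 from 47367751 to 47386160 on the plus strand. Lgals9 (78962974 to 78984946) and Lgals3bp (118392751 to 118402092) both lie on the minus strand of chromosome 11. No other gene had exons over theirs on the same strand. The 250 bases before the RefSeq start (GRCm38.p6) were searched for motifs in the 3 members with an entry, Lgals9, Lgals3bp and Lgals3. Lgals9 is shown because it was higher in leukemia samples in cDC1-like cells, and Lgals3 because it was not. Lgals3bp, which was also higher there, was searched but is not printed. Bases that GENCODE places in an exon were left out, which leaves chr11:78984947-78985174 (minus strand) for Lgals9 and chr14:47373610-47373812 (plus strand, inside the longer GENCODE gene) for Lgals3. Both are written 5′ to 3′ on the gene's strand, and capitals mark motif matches on either strand.
Lgals9: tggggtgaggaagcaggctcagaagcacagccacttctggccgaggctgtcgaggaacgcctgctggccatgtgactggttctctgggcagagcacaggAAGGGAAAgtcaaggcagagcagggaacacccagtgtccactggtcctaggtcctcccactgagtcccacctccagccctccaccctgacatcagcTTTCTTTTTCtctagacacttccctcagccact
Lgals3: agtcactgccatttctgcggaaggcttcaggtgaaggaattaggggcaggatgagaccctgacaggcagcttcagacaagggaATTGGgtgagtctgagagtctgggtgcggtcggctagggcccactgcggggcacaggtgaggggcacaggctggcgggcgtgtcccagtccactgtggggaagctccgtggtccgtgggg
The interferon regulatory factor core (AA, any 2 bases, GAAA; both strands) had 2 matches in the Lgals9 window and 1 in that of Lgals3bp, which lies in an annotated exon and is not printed. The core is held by 21.3% of 32851 mouse promoters of the same length. The match of Lgals9 nearest its start overlaps the longer interferon-stimulated response element (GAAA, any 2 bases, GAAA), found in 2.98% of promoters. No such element lay in the window of Lgals3 or in that of Lgals3bp, which was also higher in leukemia samples. The Lgals3 window held 1 CCAAT box (CCAAT, in 33.9% of promoters), printed, and 1 GC box (GGGCGG, in 32.7%), which lies in an annotated exon. None of the windows held the AP-1 letters (TGANTCA, in 6.75%). A match is only a match of letters.

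Lgals1 had most of its UMIs, 70.1%, in pDC-like cells. Its level there, as UMIs per 1000000 UMIs of the summed cells (CPM), was 1914 and 2174 in the leukemia vehicle samples, 1729 and 1880 with panobinostat, and in WT cells 1238 with vehicle and 1093 with panobinostat. The same gene was at 88.1 ± 38.4 CPM (SD, n = 6) in mature DC-like cells, 81.8 ± 42.3 in the cDC1-like and 68.1 ± 22.2 in the cDC2-like class, and the range of pDC-like samples overlapped none of these. In edgeR's quasi-likelihood test on the sums, with the hashed sample as a block, Lgals1 in pDC-like cells exceeded its cDC1-like level 18.4-fold (log2 4.20 ± 0.20 SE, adjusted p = 2.79e-18), its cDC2-like level 23.5-fold (4.56 ± 0.21, adjusted p = 1.93e-18) and its mature DC-like level 14.7-fold (3.88 ± 0.21, adjusted p = 5.21e-17). Among the other 3 classes, cDC2-like cells were lower than mature DC-like cells by a log2 of -0.67 ± 0.21 (adjusted p = 0.00712), under the 2-fold limit used for calls. The cDC1-like level differed from the cDC2-like level by 0.35 ± 0.20 (adjusted p = 0.129) and from the mature DC-like level by -0.32 ± 0.20 (adjusted p = 0.156), neither past the threshold. Outside the dendritic cells, monocyte-like cells spanned a wide range in the samples with 20 or more of them, with 924 and 1376 CPM in both leukemia vehicle samples, 388 CPM in leukemia panobinostat 1 and 240 CPM in WT vehicle. The value of 1376 CPM lay inside the range of pDC-like samples. So did unnamed clusters 24 (112 cells) and 33 (13 cells), at 1099 and 1586 CPM pooled over samples. Unnamed cluster 23 (155 cells) held 579 CPM. Erythroid-like cells of the same capture held only 5.64 to 8.94 CPM, below every sample of the 4 dendritic classes, while B cell-like cells held 52.6 to 143 CPM, in the range of the conventional and mature classes.

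**Figure D1:**
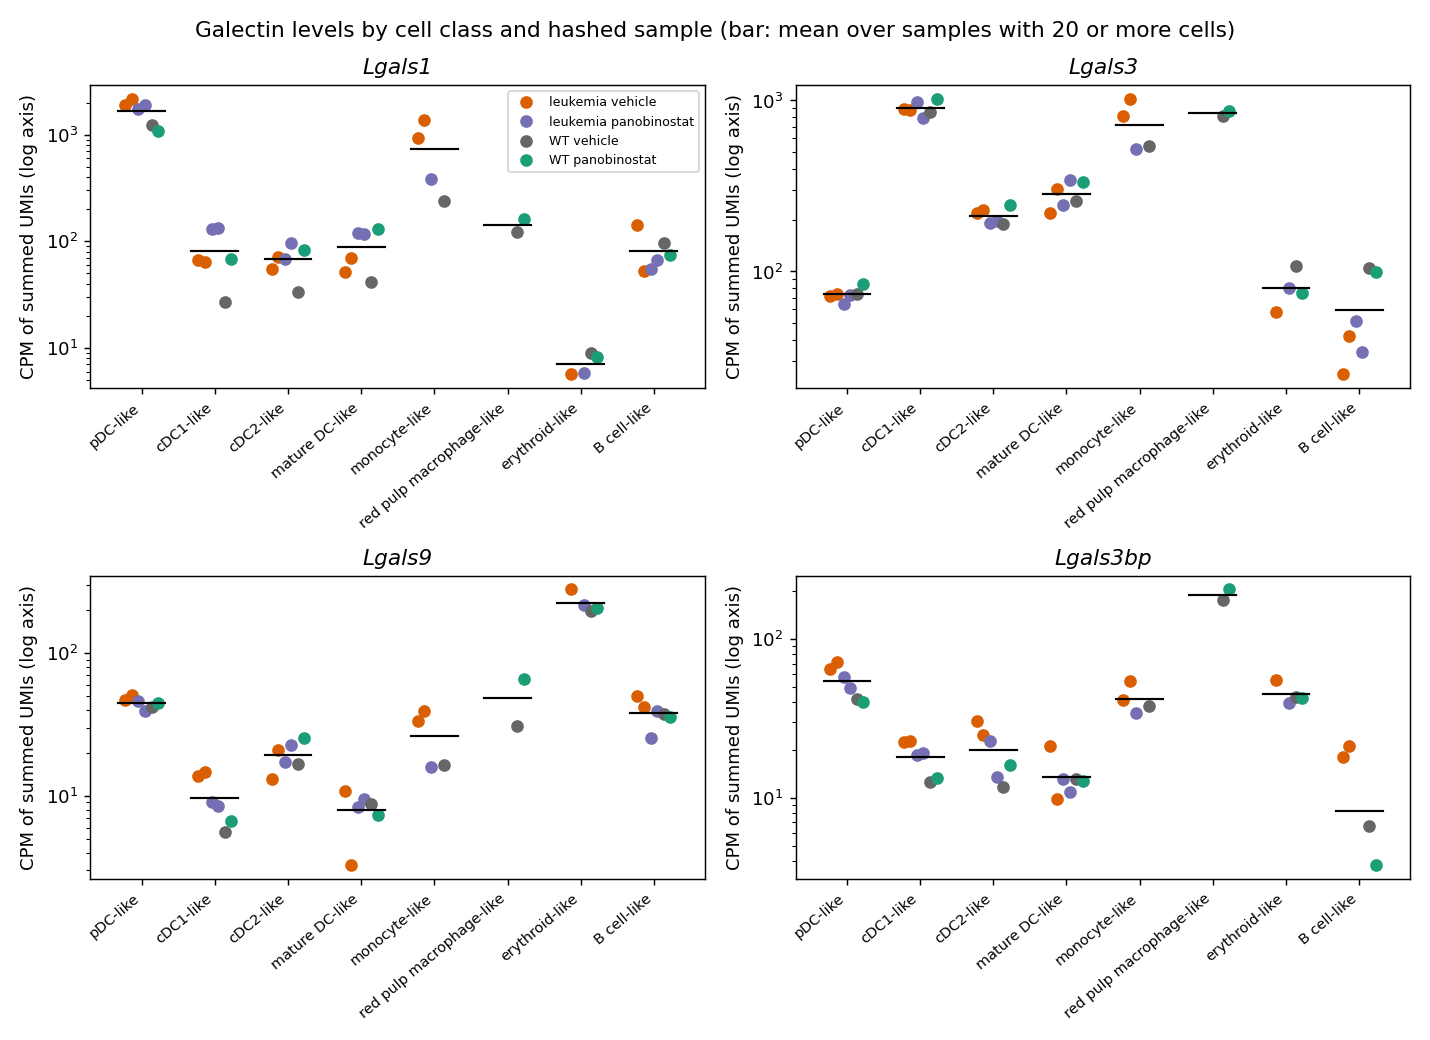
Level of each member (CPM of summed UMIs, log axis) in 8 cell classes; each point is a hashed sample with 20 or more cells of the class, coloured by disease and treatment, the bar is the mean, and samples at 0 are not drawn. Lgals1 is highest in pDC-like cells (1093 to 2174 CPM), Lgals3 in cDC1-like and macrophage-like cells, Lgals9 in erythroid-like and Lgals3bp in red pulp macrophage-like cells.

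Lgals3 was highest in cDC1-like and lowest in pDC-like cells among the dendritic classes. Its level in cDC1-like cells was 894, 881, 984, 787, 860 and 1024 CPM. It was 212 ± 22.5 CPM (SD, n = 6) in cDC2-like, 284 ± 51.0 in mature DC-like and 73.8 ± 6.51 in pDC-like cells. The cDC1-like samples lay above all samples of the other 3 classes, and the pDC-like samples below them all. Against cDC1-like cells, Lgals3 was 15.4-fold lower in pDC-like cells (log2 -3.94 ± 0.10, adjusted p = 4.84e-25). It was 4.84-fold higher in cDC1-like than in cDC2-like (log2 2.28 ± 0.09, adjusted p = 5.29e-20) and 3.03-fold higher than in mature DC-like cells (1.60 ± 0.09, adjusted p = 1.32e-16). The pDC-like level lay in the range of erythroid-like (57.9 to 108 CPM) and B cell-like cells (25.0 to 105 CPM) and did not stand apart from either. Red pulp macrophage-like cells, the resident iron-recycling phagocytes of the spleen, held 808 and 873 CPM in the 2 WT samples, close to the cDC1-like level, and monocyte-like cells 522 to 1015 CPM.

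Lgals9 peaked outside the dendritic cells. Its highest cluster level, 288 CPM (248 to 327 CPM in 4 samples), was in unnamed cluster 3, a cluster of 1187 cells. Gfi1b, Cd200r3 and Hdc were among the leading genes of that cluster. Erythroid-like cells held 280, 218, 198 and 209 CPM in the 4 samples with enough of them. Among dendritic cells pDC-like cells were highest, at 46.9, 51.0, 46.5, 39.5, 41.9 and 44.9 CPM, followed by cDC2-like cells at 13.1 to 25.5 CPM. B cell-like cells held 25.6 to 49.96 CPM, a range that overlapped that of pDC-like cells. The cDC1-like (5.58 to 14.7 CPM) and mature DC-like cells (3.27 to 10.8 CPM) had overlapping ranges and did not differ detectably (log2 -0.09 ± 0.22, adjusted p = 0.728). The pDC-like level of Lgals9 was 4.01-fold above that of cDC1-like cells (log2 2.002 ± 0.15, adjusted p = 5.38e-13), 2.03-fold above cDC2-like (1.02 ± 0.16, adjusted p = 1.53e-06) and 3.77-fold above mature DC-like cells (1.91 ± 0.20, adjusted p = 3.89e-10). Between cDC1-like and cDC2-like cells it differed by a log2 of -0.98 ± 0.16 (adjusted p = 5.41e-06), just under the 2-fold limit.

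Lgals3bp was highest in red pulp macrophage-like cells, at 175 and 205 CPM. Among dendritic cells it again marked pDC-like cells, at 65.1, 71.9, 57.3, 48.8, 41.9 and 39.9 CPM, above every sample of the other 3 classes. It was 2.41-fold higher there than in cDC1-like cells (log2 1.27 ± 0.11, adjusted p = 5.7e-12), 2.56-fold higher than in cDC2-like (1.36 ± 0.12, adjusted p = 2.37e-11) and 2.75-fold higher than in mature DC-like cells (1.46 ± 0.14, adjusted p = 5e-11). The latter 3 classes lay between 9.80 and 30.5 CPM and overlapped. Erythroid-like cells (39.4 to 55.5 CPM) and B cell-like cells (0 to 21.1 CPM) were compared too, with monocyte-like cells (34.2 to 54.5 CPM). The erythroid-like and monocyte-like ranges overlapped that of pDC-like cells.

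Counting calls at an adjusted p under 0.05 and a 2-fold change, 4 of 4 members differed between pDC-like and each other dendritic class, 3 higher and Lgals3 lower each time. The same rule called 31.3% of all genes against cDC1-like cells, 27.6% against cDC2-like and 40.6% against mature DC-like cells. The Lgals9 call against cDC2-like cells rested on the 2-fold limit, and was lost in 6 of the other settings (log2 0.68 to 0.90) and without leukemia vehicle 1, leukemia panobinostat 1 or WT vehicle (0.96 to 0.97). Lgals3 was the 1 member called when cDC1-like were set against cDC2-like cells (20.7% of genes called) or against mature DC-like cells (34.8% of genes called), and the latter change fell to 0.85, under the limit, at a coarser clustering (resolution 0.5). No member was called between cDC2-like and mature DC-like cells (30% of genes called) by edgeR or by DESeq2. An unadjusted edgeR p under 0.05 was held by 3 of the 4, with changes of less than 2-fold. It was also held by 7132 of all 10632 genes tested. With doublets left in, the Lgals1 difference of cDC1-like from cDC2-like cells turned to -0.75 (adjusted p = 0.0292) and that of cDC2-like from mature DC-like cells to 0.31 (adjusted p = 0.394).

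Cell by cell, Lgals1 and Lgals3 split the pDC-like and cDC1-like classes. After each cell was thinned to 2000 UMIs, 92.0% of pDC-like cells (exact binomial interval 90.9% to 93.0%) had a UMI of Lgals1, with a median of 3. The share was 12.1% in mature DC-like, 11.3% in cDC1-like and 8.82% in cDC2-like cells, against 8.11% of B cell-like and 1.25% of erythroid-like cells. For Lgals3 the share was 69.8% in cDC1-like cells, 30.1% in mature DC-like, 25.6% in cDC2-like and 11.5% in pDC-like cells, and the last was close to the 10.0% of erythroid-like and 9.46% of B cell-like cells. Before thinning, 98.5% of pDC-like cells had a UMI of Lgals1 and 94.8% of cDC1-like cells a UMI of Lgals3, at median depths of 5152 and 12115 UMIs. Within cDC1-like cells, 60.0% of those with a UMI of Lgals1 had one of Lgals3, against 71.1% of those without. The shares of Lgals9 and Lgals3bp were low in every dendritic class, at most 8.46% and 10.2%, both in pDC-like cells. The Lgals9 share of B cell-like cells was close to it (7.77%) and that of erythroid-like cells far higher (36.7%). For Lgals3bp the erythroid-like share was as high (10.3%) and the B cell-like share lower (1.01%). Intervals cover counting error only.

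**Figure D2:**
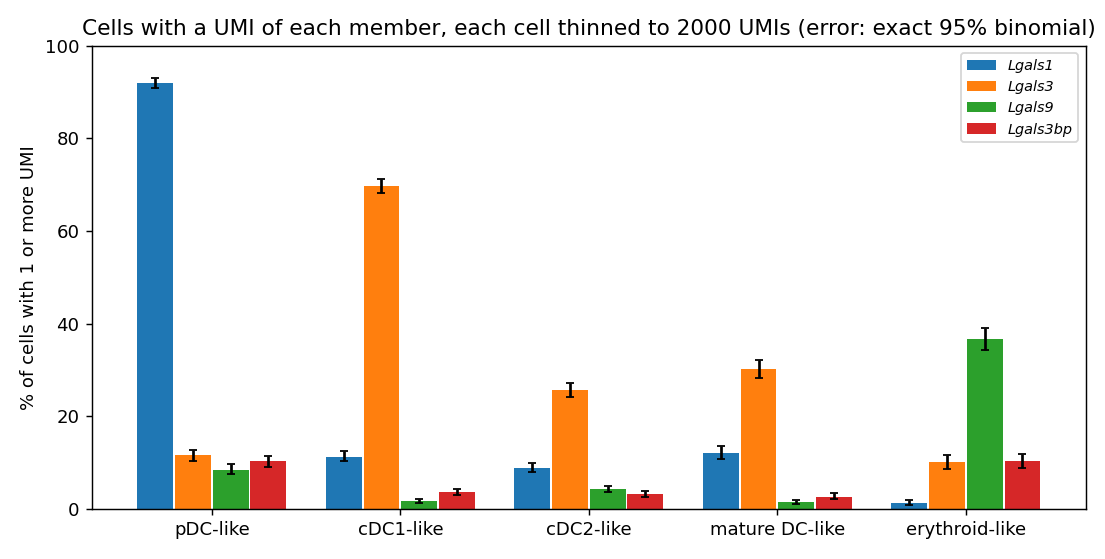
Percent of cells with 1 or more UMI of each member in the 4 dendritic classes and in erythroid-like cells, each cell thinned to 2000 UMIs; error bars are exact 95% binomial intervals. The Lgals1 bar is high in pDC-like cells (92.0%) and the Lgals3 bar in cDC1-like cells (69.8%), while Lgals9 peaks in erythroid-like cells (36.7%).

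The members also varied inside the classes. Among cDC1-like clusters, Lgals3 was at 905 CPM in the largest (cluster 2, led by Xcr1 among others), 1315 CPM in cluster 9, led by Cxcl9 and Il12b, an interferon-gamma-induced chemokine and the interleukin-12 subunit p40, and 647 CPM in cluster 10. Its sample ranges in clusters 9 (1160 to 1646 CPM) and 10 (564 to 751 CPM) did not overlap. The highest level of any cluster, 1487 CPM (1270 to 1732 CPM in 5 samples), was in cluster 8, an unnamed cluster of 694 cells whose leading genes were Ctrb1, Prss2, Lgals3, Gm11837 and Hfe. Its cells carried cDC1 markers, with 213 CPM of Clec9a and 553 CPM of Cd8a against 102 and 213 CPM in the other cells, and 8.16 CPM of Siglech against 251 CPM. Ctrb1 and Prss2 encode pancreatic digestive enzymes, and their RNA also led cluster 10. In the cDC1-like sums pancreatic acinar markers reached 208 CPM in WT vehicle and 2.09 to 4.55 CPM in the other samples. Whether that RNA has a part in any Lgals3 value was not tested. Among mature DC-like clusters, Lgals1 was at 218 CPM in cluster 13, led by Clu, Ccl17 and Ccl22, and at 51.5 and 51.0 CPM in clusters 6 and 11. Among cDC2-like clusters it was at 181 CPM in cluster 17, led by Wfdc17, Clec4a3 and other myeloid genes such as Csf1r and Lyz2, against 52.7 and 26.6 CPM in clusters 1 and 4. Lgals3 had another order in the mature clusters, at 597 CPM in cluster 20 (led by AW112010), 371 CPM in cluster 6, 164 CPM in cluster 13 and 80.5 CPM in cluster 11. Unnamed cluster 5 (1071 cells) entered none of the mature DC-like values. It had 1292 CPM of Ccr7 and 828 CPM of Fscn1, against 178 and 116 CPM in the other cells. Ccl17, also a mature DC marker, was at 2.86 CPM against 7.30 CPM. This cluster held 131 CPM of Lgals3 (61.9 to 212 CPM in 6 samples) and 66.2 CPM of Lgals1. A small unnamed cluster of 48 cells (cluster 30), with Sct, Ifi44, Iigp1 and Ifi204 in the lead, held 1768 CPM of Lgals1, as the pDC-like cells did. It held 174 CPM of Lgals9 (exact Poisson interval 129 to 229) and 194 CPM of Lgals3bp (147 to 253), against 45.5 (42.2 to 49.0) and 57.3 (53.6 to 61.2) in the pDC-like cluster. Those intervals cover counting error over pooled cells, since no sample had 20 such cells, and clusters are not replicates.

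**Figure D3:**
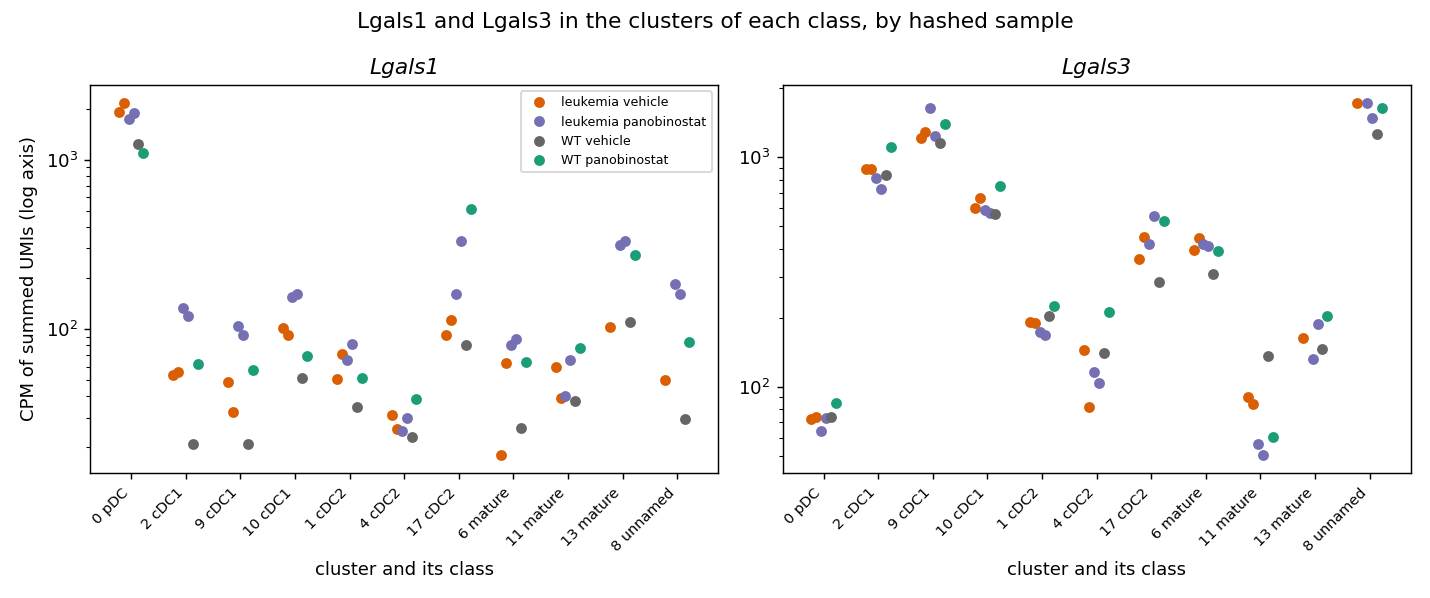
Lgals1 (left) and Lgals3 (right) in CPM on a log axis in the clusters of each dendritic class and in unnamed cluster 8; each point is a hashed sample with 20 or more cells of the cluster, coloured by disease and treatment. Lgals1 is raised in clusters 13 and 17 above the other clusters of their classes, and Lgals3 is highest in clusters 8 and 9.

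In cycling cDC1-like clusters (10 and 18, with proliferation genes among their leading 20) Lgals3 was lower than in the other cDC1-like clusters by a log2 of -0.76 ± 0.04 (adjusted p = 2.04e-15) and Lgals3bp by -0.37 ± 0.12 (adjusted p = 0.0124). Lgals1 was higher by 0.63 ± 0.09 (adjusted p = 5.13e-07), and Lgals9 differed by -0.01 ± 0.19 (adjusted p = 0.967). None of the 4 reached the 2-fold limit, by which 9.88% of genes were called. No cluster named cDC2-like had a cycling gene in the lead, so no such comparison was made there. Unnamed cluster 12 (511 cells), led by Pclaf among others, entered no class. Its cDC2 markers were mixed. Sirpa (154 against 44.9 CPM in the other cells) and Clec4a4 (32.9 against 4.82) were higher. Cd209a (29.5 against 48.4) and Clec10a (2.24 against 26.6) were lower. This cluster held 106 CPM of Lgals1 and 154 CPM of Lgals3.

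Leukemia samples had more Lgals1 in pDC-like and cDC1-like cells. In pDC-like cells the 4 leukemia samples, at 1729 to 2174 CPM, lay above both WT samples (1093 and 1238 CPM). With treatment in the model, the difference was 1.62-fold (log2 0.70 ± 0.06, adjusted p = 1.28e-07). In cDC1-like cells the levels were 67.3, 64.0, 131, 135, 26.7 and 67.6 CPM. Leukemia samples were higher within each treatment, although WT panobinostat reached the leukemia vehicle samples, and the fitted difference was 2.03-fold (1.02 ± 0.09, adjusted p = 1.27e-05). Leaving out any 1 hashed sample kept this change between 0.89 and 1.17 and that of pDC-like cells between 0.65 and 0.74, each with an adjusted p under 0.05. In cDC2-like cells (54.8, 71.3, 68.3, 97.3, 33.6 and 83.6 CPM) and mature DC-like cells (51.1, 70.2, 119, 116, 41.9 and 130 CPM) the 2 disease groups overlapped, with changes of 0.36 ± 0.16 (adjusted p = 0.488) and -0.01 ± 0.15 (adjusted p = 0.992). The cDC2-like change became 0.87 without WT panobinostat (adjusted p = 0.00296) and 1.86 with doublets left in (adjusted p = 0.00444).

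A test of the difference itself, added after the data were seen and fitted over the 4 classes at once, found the leukemia change of Lgals1 larger in cDC1-like than in mature DC-like cells by a log2 of 1.03 ± 0.16 (adjusted p = 1.93e-05; 4.43% of genes called). It was larger in pDC-like than in mature DC-like cells by 0.71 ± 0.16 (adjusted p = 0.00981; 1.15% of genes called) and in cDC1-like than in cDC2-like cells by 0.63 ± 0.16 (adjusted p = 0.0254; 2.07% of genes called). The first of these was called with any 1 hashed sample left out (0.83 to 1.14). The second was not called without leukemia vehicle 1 (0.73, adjusted p = 0.0624) or WT panobinostat (0.39, adjusted p = 0.549). The third was not called without leukemia vehicle 1 (0.61, adjusted p = 0.124), leukemia panobinostat 1 (0.45, adjusted p = 0.135) or WT panobinostat (0.26, adjusted p = 0.819). With doublets left in none was called, at 0.75 (adjusted p = 0.113), 0.43 (adjusted p = 0.58) and -0.87 (adjusted p = 0.0819).

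Markers of other Lgals1-rich cells were measured in the same sums. In the cDC1-like sums, 10 pDC markers, all detected, summed to 207 to 253 CPM in leukemia and to 198 and 208 CPM in WT samples. Siglech, the first on the marker list, was at 5.08 to 8.28 CPM in leukemia and 5.95 and 7.58 CPM in WT samples, which overlap. Monocyte markers summed to 47.1 to 87.6 CPM in leukemia and to 58.8 and 63.0 CPM in WT samples, with F13a1 at 0 in all samples but leukemia panobinostat 1. The monocyte marker Ly6c2, which pDCs also express, was at 14.99, 15.3, 27.2 and 24.7 CPM in leukemia and 12.4 and 10.2 CPM in WT samples, with no overlap. In the pDC-like sums the monocyte markers reached 2756 to 3113 CPM in leukemia and 2375 and 2630 CPM in WT samples, most of it Ly6c2, and Ace was at 0 in every sample. The part of these markers' cells in the Lgals1 differences was not tested. Without leukemia vehicle 2, the sample that stood apart, the change in cDC1-like cells was 1.01 (adjusted p = 2.56e-07).

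Lgals3bp was also higher in leukemia samples in pDC-like and cDC1-like cells, and Lgals9 in cDC1-like cells. In cDC1-like cells Lgals9 was at 13.8, 14.7, 9.002, 8.52, 5.58 and 6.65 CPM. The 2 WT samples were the lowest, and the change was 1.73-fold (log2 0.79 ± 0.19, adjusted p = 0.022). Lgals3bp in cDC1-like cells was at 22.6, 22.7, 18.5, 19.05, 12.5 and 13.4 CPM, again with no overlap, a 1.49-fold change (0.58 ± 0.12, adjusted p = 0.0111). In pDC-like cells Lgals3bp rose 1.56-fold (0.64 ± 0.14, adjusted p = 0.0176), with 48.8 to 71.9 CPM in leukemia and 39.9 and 41.9 CPM in WT samples. These 3 calls depended on single samples. DESeq2 made none of them, and without WT vehicle the changes fell to 0.32 for Lgals9 (adjusted p = 0.579), 0.41 for Lgals3bp in cDC1-like cells (adjusted p = 0.266) and 0.43 in pDC-like cells (adjusted p = 0.881). They were also not called without leukemia vehicle 1, Lgals9 was not called with doublets left in (0.71, adjusted p = 0.052), and Lgals3bp in pDC-like cells was not called without leukemia vehicle 2 (0.60, adjusted p = 0.144). Erythroid markers, whose cells are rich in Lgals9, summed to 803 to 1903 CPM in the cDC1-like cells of leukemia and to 1034 and 1105 CPM in those of WT samples, and their part was not tested. In cDC2-like cells Lgals3bp was at 30.5, 24.7, 22.6, 13.4, 11.7 and 16.1 CPM, a change of 0.81 ± 0.23 that missed the threshold (adjusted p = 0.105) and passed it at 1.26 without WT panobinostat (adjusted p = 0.00142). Cluster 17, at 43.6 CPM of Lgals3bp against 14.5 and 11.7 CPM in clusters 1 and 4, held 9.05% to 20.5% of the cDC2-like cells in leukemia and 4.27% and 6.86% in WT samples. It was also the cDC2-like cluster with the most Lgals1, and the part of this make-up in the cDC2-like changes of either gene was not tested. The leukemia change of Lgals9 was larger in cDC1-like than in cDC2-like cells by 0.97 ± 0.26 (adjusted p = 0.0307). That difference was not called without leukemia vehicle 1 (0.80, adjusted p = 0.292), leukemia panobinostat 1 (0.90, adjusted p = 0.0724) or WT vehicle (0.67, adjusted p = 0.728).

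Lgals3 showed no difference past the threshold between leukemia and WT samples in any of the 4 dendritic classes. Its changes were -0.19 ± 0.15 in mature DC-like cells, -0.06 ± 0.10 in cDC2-like, -0.18 ± 0.08 in cDC1-like and -0.08 ± 0.12 in pDC-like cells, with adjusted p-values of 0.608, 0.926, 0.205 and 0.963. The pDC-like change passed the threshold at -0.45 with coarser clustering (adjusted p = 0.0355) and at -0.54 with doublets left in (adjusted p = 0.00161). The disease groups overlapped in all classes but pDC-like cells, where the leukemia samples (64.5 to 73.8 CPM) lay just below the WT samples (74.0 and 84.8 CPM). In all, 2 of 4 members were called in pDC-like cells, where 0.653% of all genes were, and 3 of 4 in cDC1-like cells, where 7.39% were. No member was called in cDC2-like (0.956% of genes) or mature DC-like cells (2.99% of genes) by edgeR or DESeq2. In these 2 classes, 2 members and 0 members, respectively, had an unadjusted edgeR p under 0.05. So did 853 of 9207 and 1281 of 8388 genes tested.

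**Figure D4:**
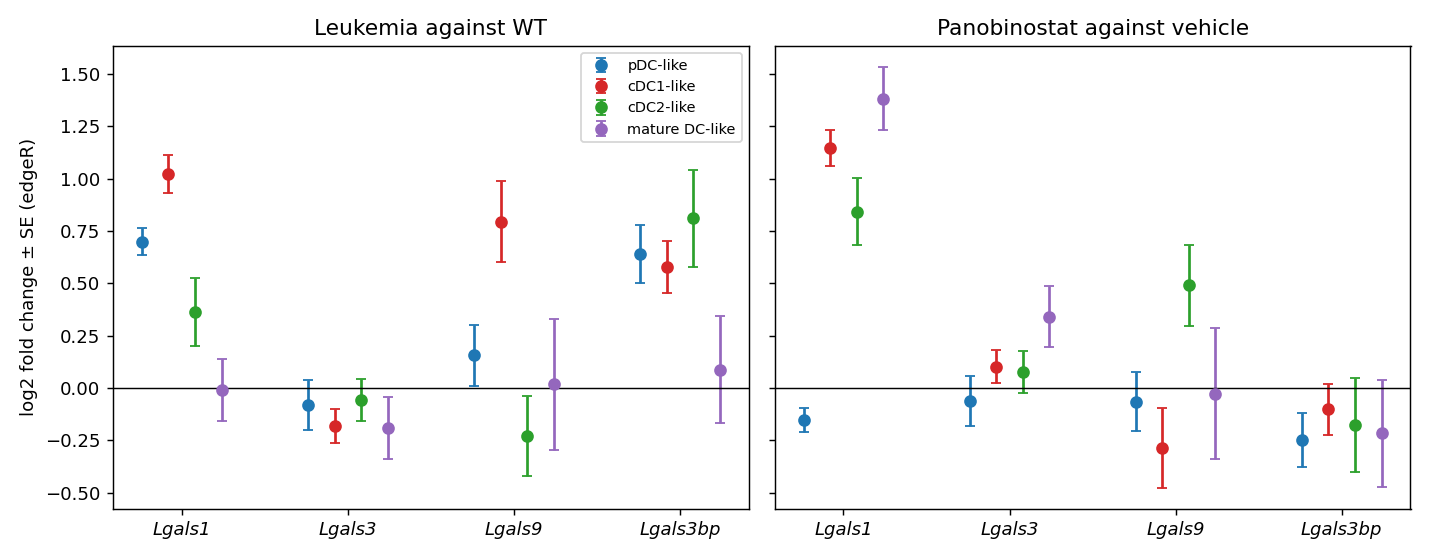
Log2 fold change of each member (edgeR, points, with SE as error bars) for leukemia against WT (left, adjusted for treatment) and panobinostat against vehicle (right, adjusted for disease) in the 4 dendritic classes. On the left Lgals1 is raised in pDC-like (0.70) and cDC1-like cells (1.02); on the right, the contrast the genes were selected on, Lgals1 is raised in mature DC-like (1.38), cDC1-like (1.15) and cDC2-like cells (0.84) and Lgals3 stays near 0.

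The panobinostat contrast is the one the genes were selected on. Within each disease state, all panobinostat samples had more Lgals1 than all vehicle samples in cDC1-like and mature DC-like cells, with log2 changes of 1.15 ± 0.09 and 1.38 ± 0.15. In cDC2-like cells the change was 0.84 ± 0.16, with overlap between leukemia vehicle 2 (71.3 CPM) and leukemia panobinostat 1 (68.3 CPM). That value turned to -1.01 with doublets left in. It fell to 0.45 in the leukemia samples alone, without WT vehicle, without WT panobinostat and at a finer clustering (resolution 2). In pDC-like cells, where the gene is highest, the panobinostat samples lay below the vehicle samples in both disease states, by a log2 of -0.15 ± 0.06. Inside clusters the values differed. In mature cluster 13 Lgals1 was at 102 CPM in leukemia vehicle 1 and 110 in WT vehicle, and at 315, 332 and 273 CPM in the 3 panobinostat samples. In cDC1-like cluster 2 it was at 53.8, 55.9 and 21.04 CPM in the vehicle and 132, 120 and 62.2 CPM in the panobinostat samples. In unnamed cluster 8 it was at 49.8 and 29.3 CPM in the vehicle and 186, 162 and 83.6 CPM in the panobinostat samples with enough cells. In cDC2-like cluster 17 Lgals1 was at 92.5, 113 and 81.0 CPM in the vehicle and 162, 333 and 515 CPM in the panobinostat samples. The last value, from WT panobinostat, rests on 28 cells. In clusters 1, 4 and 11 the vehicle and panobinostat ranges of leukemia samples overlapped. Mature cluster 11 held 59.8 and 39.0 CPM in leukemia vehicle and 40.5 and 65.4 CPM in leukemia panobinostat samples, with 37.5 and 77.4 CPM in WT. The cDC2-like cluster 4 held 31.2 and 25.8 CPM in leukemia vehicle and 25.2 and 29.8 CPM in leukemia panobinostat samples, with 23.1 and 38.9 CPM in WT. Cluster make-up moved too: cluster 13 held 12.8% to 17.3% of mature DC-like cells in vehicle and 12.8% to 28.7% in panobinostat samples, and cluster 11 held 49.6% in leukemia vehicle 1 and 4.67% in WT panobinostat. The part of this make-up in the class values was not tested.

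Lgals3 changed with panobinostat by 0.34 ± 0.15 in mature DC-like and -0.06 ± 0.12 in pDC-like cells, and by 0.10 ± 0.08 and 0.08 ± 0.10 in the cDC1-like and cDC2-like classes. In no class did the panobinostat samples lie on the same side of the vehicle samples in both disease states. Lgals9 changed by between -0.29 and 0.49 and Lgals3bp by between -0.25 and -0.10 over the 4 classes. The -0.25 was that of Lgals3bp in pDC-like cells, where the panobinostat samples lay below the vehicle samples in both disease states. The share of all genes past the threshold was 1.88% for cDC1-like, 1.18% for cDC2-like, 0.227% for mature DC-like and 0.207% for pDC-like cells. No calls of members are given, because the genes were selected on this contrast.

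No member had a disease by treatment interaction past the threshold. The nearest were Lgals3 (-0.59 ± 0.15, adjusted p = 0.0667) and Lgals1 (-0.93 ± 0.25, adjusted p = 0.0765) in cDC2-like cells, both with a smaller panobinostat change in leukemia than in WT samples. With doublets left in, both passed the threshold, at -1.06 for Lgals3 (adjusted p = 0.0119) and -2.21 for Lgals1 (adjusted p = 6.47e-05). edgeR called 0.437% of all genes in cDC2-like, 0.32% in cDC1-like, 0.0665% in mature DC-like and 0.0706% in pDC-like cells, and DESeq2 was not run on the interaction. At an unadjusted p under 0.05 there were 3 members in cDC2-like, 1 in cDC1-like, 1 in mature DC-like and 0 in pDC-like cells. In the same order, 691 of 9620, 909 of 10324, 313 of 9028 and 629 of 9909 genes passed that threshold. WT had 1 hashed sample per treatment.

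Genes whose products bind galectins or build their sugar ligands were counted in the same comparisons. Of 16 tested galectin-binding glycoproteins and receptors, 9 rose and 3 fell from cDC1-like to pDC-like cells (median log2 1.01, against 0.01 over all genes), where 31.3% of all genes were called. They were led by Cd7 (5.81), a T cell glycoprotein that binds galectin-1, and by Lag3 (4.57), Spn, which encodes CD43 (4.44), and Cd69 (4.42). Of 19 glycan enzymes, 8 were higher and 2 lower in that comparison (median 0.70), among them the Golgi mannosidase gene Man2a2 (3.996), the sialyltransferase gene St3gal6 (2.99) and Mgat4a (2.78), with Mgat4b lower (-2.23). In cDC1-like cells of leukemia samples 3 of 14 tested binding partners were higher and 6 lower (median -0.12, against 0.01 over all genes), where 7.39% of all genes were called. Nrp1 (0.94) and Cd69 (0.91) were higher there, while Lag3 (-0.99) and Cd7 (-0.87) were lower. Of 18 enzymes, none was higher and 2 were lower, Gcnt2 (-1.12), which branches galactose-containing chains, and St6gal1 (-0.58), whose sialic acid cap blocks galectin-1 binding. In mature DC-like cells 1 of 15 partners was higher (Ptprc, 0.60) and 2 were lower (Tnfrsf9, -0.75, and Lamp1, -0.37), and 1 of 15 enzymes was higher (Man2a1, 0.95), where 2.99% of all genes were called. No partner or enzyme was called by edgeR for leukemia against WT in pDC-like or cDC2-like cells. With panobinostat, Cd69 (0.43) was called higher in pDC-like cells, where 0.207% of all genes were called. In cDC2-like cells (1.18% of genes called) Nrp1 (1.31) and Cd69 (0.87) were higher and Lamp1 (-0.60) lower with it. Cd44 (0.57) was higher in mature DC-like cells (0.227%). In cDC1-like cells (1.88%) Gcnt2 (0.90) was higher and St6gal1 (-0.55) lower.

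At least 1 interferon-stimulated gene was higher in leukemia samples in every dendritic class, and most of those tested were in cDC1-like cells. In cDC1-like cells 10 of 16 were higher and none lower (median log2 0.89), led by Rsad2 (1.68), Ifi44 (1.03), Usp18 (0.99) and Isg15 (0.98), all antiviral or interferon-feedback genes. In pDC-like cells 3 of 16 were higher and none lower (median 0.41), among them Ifi44 (0.85) and Isg15 (0.71). In cDC2-like cells 4 of 19 were higher and none lower, and in mature DC-like cells 1 of 14 was higher (Isg15, 0.81) and 1 lower (Bst2, -0.46, also a pDC marker). With panobinostat the list's median lay between -0.16 and 0.10 in the 4 classes. In cDC1-like cells 2 of 16 were higher with it, Isg15 (0.56, adjusted p = 0.0458) and Zbp1 (0.53, adjusted p = 0.0398), against 1.88% of all genes called. These lists were assembled with earlier results of these data known and support nothing on their own.

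Other galectins were scarce. Lgals4, which encodes an epithelial tandem-repeat galectin, had 336 UMIs, of which 73.5% were in pDC-like cells, and it was 34.9-fold higher there than in cDC1-like cells (log2 5.12 ± 0.28, adjusted p = 1.02e-16). Its near-identical copy Lgals6 had no entry in the feature list, so reads of it, if any, would not be counted apart. Lgals7 had 2126 UMIs, 56.6% of them in erythroid-like cells, which were also rich in Lgals9, and 40.8% in unnamed cells. Lgals8 (1657 UMIs) was spread over the classes and 4.10-fold higher in pDC-like cells than in the cDC1-like class. The largest share of Grifin (369 UMIs) and of Lgalsl (438 UMIs), at 56.9% and 42.2%, lay in cDC1-like cells, the deepest dendritic class. By level, Lgalsl was at 3.71 CPM there, 6.37 CPM in mature DC-like cells and 118 CPM in 75 megakaryocyte or platelet-like cells. Grifin was at 4.22 CPM in cDC1-like and 4.74 CPM in mature DC-like cells. Lgals2 had 11 UMIs and Lgals12 none.

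Across the 24 sums of the 4 dendritic classes and 6 hashed samples, which share samples and classes, the genes with the profile most like each member were ranked by Pearson's r of log2(CPM + 1) among 4835 genes. Lgals1 was nearest to Ly6c2 (r = 0.96), Them6, Bst2, Cdkn2d and Svbp, of which Ly6c2 and Bst2 are surface proteins typical of pDCs. Lgals3 was nearest to Atpif1 (r = 0.97), Eef1b2, Rab32, Snx22 and Ece1. Lgals9 was nearest to Rac2 (r = 0.95), BC147527, Ptp4a3, Man2a2 and Atxn7l3b, and Lgals3bp to Tmem59 (r = 0.94), Bcap31, Atf6b, Dtx2 and Ndufs5. Among the members, Lgals1, Lgals9 and Lgals3bp ran together (r of 0.79 to 0.85) and Lgals3 against them (r of -0.78 to -0.67). After each class mean was removed, no pair of members went beyond -0.27 or 0.37, so the values of these pairs mostly describe the order of the classes. The nearest genes then kept r of 0.62 to 0.70 for Lgals3bp and 0.43 to 0.70 for Lgals9. Those of Lgals1 kept 0.28 to 0.58 and those of Lgals3 -0.10 to 0.42.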

How the data were processed

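Single-cell RNA was measured in 1 pooled 10x capture of 6 hashed samples, deposited as 3 libraries (gene expression, hashtags and 2 antibody tags). The deposited values are raw UMI counts per gene and barcode; the tools listed in the submitters' processing notes are Cell Ranger 3.1.0 and Seurat 3.1.0, whose roles are not given in the sources used here. The members and gene lists were chosen with earlier results of these data known.

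Of 38717 barcodes, 57.5% carried 1 hashtag above a negative binomial threshold (99% quantile) and 35.4% carried several. Cells needed 500 genes and at most 10% mitochondrial UMIs, and barcodes with a doublet score over 0.4 (8.92% of those with 1 hashtag) were left out; that threshold and the rule that names clusters were set after the scores and clusters were seen. Clusters (Leiden, resolution 1, 2000 variable genes without members and lists, 30 components, 15 neighbours) were named from marker genes. UMI counts were summed per class and hashed sample (20 or more cells) and tested with edgeR 4.0.16 quasi-likelihood (TMM, Benjamini-Hochberg adjustment over all genes tested); DESeq2 1.42.0 was an alternative. Class comparisons had the hashed sample as a block; leukemia and panobinostat changes came from 1 additive fit per class. Calls needed an adjusted p under 0.05, and a 2-fold change between classes and in the cycling comparison. The fits were tested on simulated counts with a fixed dispersion and no sample effect. That test cannot speak to how the results depend on single hashed samples. Named list genes were at most 4 called genes per list and comparison with the largest change, among genes with 50 or more UMIs. Alternatives covered normalization, count and cell filters, doublets, hashtag calls, resolution, thinning, sample subsets and each hashed sample left out. The test of leukemia changes between classes was added after the data were seen. Antibody tags were not used. The value of 1 list gene is not reported here.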

Additional observations from a re-analysis of the deposited data

Results flagged for a closer look

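In pDC-like cells of the 4 leukemia samples, leukemia panobinostat 1 had a Lgals3 level of 64.463 CPM, set apart from the other three by a gap of 0.8429 of the group's range, above Dixon's critical value for 4 samples. Of 16 groups of 4 samples looked at, chance alone would set apart about 1 in 20.

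The panobinostat change of Lgals1 went down in pDC-like cells and up in cDC1-like and mature DC-like cells, in every sample of both disease states. The pDC-like change was lower by a log2 of -1.2970 than that of cDC1-like cells and by -1.5351 than that of mature DC-like cells; these differences were not tested, since the genes were selected on this contrast.

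The leukemia change of Lgals1 differed between classes by edgeR's test of the difference: pDC-like minus mature DC-like by 0.7131 (adjusted p = 0.00981), cDC1-like minus mature DC-like by 1.0302 (adjusted p = 1.93e-05) and cDC1-like minus cDC2-like by 0.6255 (adjusted p = 0.0254). That of Lgals9 differed between cDC1-like and cDC2-like cells by 0.9660 (adjusted p = 0.0307).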

How the results depend on the processing

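The Lgals1 leukemia changes in pDC-like and cDC1-like cells kept their direction and call in every alternative run, and so did the pDC-like class differences of the members other than Lgals9, which fell under 2-fold against cDC2-like cells in 9 alternatives. Counts of members called moved as follows (count as reported first). For cDC1-like against cDC2-like the count of 1 became 2 with doublets left in, at resolution 2, with the lists in clustering, with stricter cell filters, thinned to 2000 UMIs and with each pair fitted alone, and was 1 to 2 with 1 hashed sample left out. For cDC1-like against mature DC-like it went from 1 to 0 at resolution 0.5. For cDC2-like against mature DC-like it went from 0 to 1 with the ratio hashtag call, resolution 2, lists in clustering and thinning, and to 2 at resolution 0.5 and with stricter filters (0 to 1 with a sample left out). The leukemia count in cDC1-like cells fell from 3 to 1 with DESeq2 and with thinning (1 to 3 with a sample left out), and that in pDC-like cells from 2 to 1 with both (1 to 2). In cDC2-like cells it went from 0 to 1 without a count filter and with doublets left in, and to 2 in vehicle samples alone (0 to 2); the interaction count there went from 0 to 1 without a count filter and to 2 with doublets left in. Members called for a leukemia change that differed between classes went to 0 with doublets left in for all 3 pairs, from 2 for cDC1-like minus cDC2-like (0 to 2 with a sample left out), from 1 for cDC1-like minus mature DC-like (1 to 1) and from 1 for pDC-like minus mature DC-like (0 to 1).

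Signs turned mostly where the change was near 0. With doublets left in, Lgals1 turned to -0.75 for cDC1-like against cDC2-like, 0.31 for cDC2-like against mature DC-like, -1.01 for panobinostat in cDC2-like cells, -0.87 for the leukemia change of cDC1-like minus cDC2-like, 0.20 for leukemia in mature DC-like cells and -0.21 for the pDC-like interaction. In the same setting Lgals3 turned to 0.48 for leukemia in cDC2-like cells and to -0.0231 and -0.4878 for the leukemia change of cDC1-like and pDC-like minus mature DC-like, and Lgals9 to -0.0516 for leukemia in mature DC-like cells and 0.16 for the pDC-like interaction. Lgals9 for cDC1-like against mature DC-like became 0.1850 with the ratio hashtag call, 0.0659 at resolution 0.5, 0.0147 at resolution 2, 0.12 with stricter filters and 0.20 when thinned (-0.23 to 0.12 with a sample left out), and its cycling difference 0.0270 at resolution 2 (-0.19 to 0.16). Lgals3 for leukemia in cDC2-like cells became 0.15 with the ratio call, 0.0558 at resolution 2, 0.0380 with stricter filters, 0.17 when thinned and 0.2350 in vehicle samples (-0.35 to 0.24). For leukemia in mature DC-like cells Lgals1 became 0.0355 with DESeq2, 0.0390 with the ratio call, 0.11 at resolution 0.5, 0.0438 at resolution 2 and 0.36 in vehicle samples (-0.24 to 0.36), and Lgals9 became -0.0282 with DESeq2, -0.0061 without a count filter and -0.16 in vehicle samples (-0.17 to 0.17). With 1 hashed sample left out, other signs turned within these ranges: Lgals3bp -0.0018 to 0.18 for cDC1-like against cDC2-like, -0.24 to 0.31 for leukemia in mature DC-like cells and -0.57 to 0.21 for the leukemia change of cDC1-like minus cDC2-like; Lgals1 -0.0529 to 0.87 for leukemia in cDC2-like cells; Lgals3 -0.3575 to 0.0319, -0.15 to 0.25 and -0.0622 to 0.22 for the 3 class differences in leukemia change; Lgals9 -0.12 to 0.37 for pDC-like minus mature DC-like and -0.0369 to 0.20 for leukemia in pDC-like cells. The cause of these moves was not tested.

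The number in the hashtag name as a replicate block could be fitted in leukemia samples alone, where numbers are shared; nothing in the labels pairs them. With the block, the Lgals1 panobinostat change was -0.15 in pDC-like, 1.11 in mature DC-like, 0.43 in cDC2-like and 1.05 in cDC1-like cells, against -0.15, 1.11, 0.45 and 1.05 without it. Lgals9 and Lgals3bp had few UMIs in the conventional and mature classes, which limits their precision there.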
